A study of Bos taurus with 2 samples.

Results

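The genes described here encode the fibroblast, insulin-like, platelet-derived and vascular endothelial growth factors, their receptors and the binding proteins of the insulin-like growth factors (IGF), together with hepatocyte and epidermal growth factor, the insulin receptor and its substrate. They were found by their names on a bovine array of 60-base probes: names made of FGF or FGFR and a digit, names beginning with IGF1, IGF2, IGFBP, PDGF or VEGF, and PGF, HGF, MET, EGF, EGFR, FLT1, FLT4, INSR and IRS1. There were 60 such genes among 32428 gene names, with 154 probes on 162 spots, and FLT4 was not among the names on the array. Testis tissue came from adult males of 2 groups, crossbred bulls with Holstein Friesian inheritance and Zebu bulls of the Tharparkar breed, each sampled from 3 bulls aged 24 months by removal of 1 testis, with no treatment named for either group. The RNA of each group was pooled and labelled with Cy3 on 1 array, so a pool gives no spread between bulls. A group is thus 1 array, so the differences could not be checked in a replicate and carry no p-value.

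Growth factors of these families are secreted proteins that bind receptor tyrosine kinases at the cell surface and start signalling through RAS and MAP kinases and through phosphoinositide 3-kinase. In the testis, FGF2, FGF9, IGF1 and IGF2 are known as signals of and to Sertoli cells, the cells that carry the germ cells. The PDGF receptor alpha is known from the cells that become Leydig cells, which make testosterone, and VEGF acts mainly on blood vessels.

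A level is the log2 of the signal deposited for a spot, averaged over the spots of a probe, minus the 75th percentile of its array. A difference is crossbred minus Zebu. A gene was read from its brightest probe, and its call as higher or lower needed a difference beyond 1.5 in size and a brighter array well above background, a mark set by the scanner software. Where the dimmer array lacked this mark, a bound replaced the fold. Levels of different probes are not comparable, since each probe binds with its own strength. The array is a Bos taurus design, while the Zebu bulls are Bos indicus and the crossbred bulls Bos taurus by Bos indicus. Binding of a probe may thus also differ between the groups, which cannot be told apart from a difference in RNA level here. The scanner software marked 72.0% of the spots of the crossbred array and 74.3% of those of the Zebu array as well above background. Among 5960 probes with several spots, the root mean square SD between spots was 0.29 in crossbred and 0.18 in Zebu. Combined as if the arrays varied independently, these give 0.34 for a difference, called the SD between spots below. The SD of the spot differences themselves had a median of 0.10. These values cover spotting and scanning only. On the crossbred array a dark patch of 544 spots and a bright patch of 105 spots stood out, with median differences of -1.01 and 1.1. Only 1 spot of the growth factor genes, for IGFBP3, lay in the dark patch and 0 lay in the bright patch.

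The probes behind the calls are shown first, by the first 30 of their 60 bases as deposited with the arrays. All 3 probes of FGF1, of HGF and of IRS1 are shown because the probes of each of these genes gave different readings. INSR and IGFBPL1, the genes called lower, are shown by the probe that gave the call. An overlapping pair of IGF2 was measured on both arrays and is shown with the shared bases of the printed stretch in capitals. Positions are those in the deposited annotation on Btau_3.1, and the files do not say whether a probe lies in coding or untranslated sequence.
FGF1 from base 912 of the transcript, chr7:53129986-53130045, minus strand: gagccatggctgaaggagaaaccacgacct
FGF1 from base 1259, chr7:53109443-53109502, minus strand: aagaagcatgcagagaagcattggttcgtt
FGF1 from base 3548, chr7:53107155-53107214, minus strand: agtcgttatttgtgtattcgctcgatgagt
HGF from base 368, chr4:40283556-40283615, plus strand: ggacttccattcacttgcaaggcctttgtt
HGF from base 734, chr4:40283922-40283981, plus strand: tgtgacattcctcagtgttcagaagttgaa
HGF from base 2304, chr4:40434311-40434370, plus strand: cgtataaggcaccacagttgtagctggtat
IRS1 from base 1612, chr2:119574739-119574798, minus strand: aaaccccgtctcagtcctctgtggcttcca
IRS1 from base 2686, chr2:119573665-119573724, minus strand: tgaatattgaatttgggagcgatcagccag
IRS1 from base 3483, chr2:119572868-119572927, minus strand: tgcggggccgctgggggtttggagaatggt
IGF2 from base 3728, chr29:51276488-51276547, plus strand: gaatccACAGCCTGGGTTTTGTCTTTAACC
IGF2 from base 3734, chr29:51276494-51276553, plus strand: ACAGCCTGGGTTTTGTCTTTAACCtttatc
INSR from base 4391, chr7:14514400-14514459, minus strand: ttgggccaccgaggtttcaagcccagatgt
IGFBPL1 from base 2743, chr8:65232775-65232834, minus strand: gatcagtggttttcaaactttaaaacattg

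Most of the 46 genes measured on both arrays had lower levels in the crossbred testis, by amounts that rarely reached the threshold. Among the ligands alone, the share with lower levels was near that of all gene names. Of the 60 genes, 46 passed as well above background in both groups, PDGFRB in Zebu alone and 13 in neither. HGF, IRS1 and FGF1 were called higher in crossbred, 3 of 47 detected genes, where 7.12% of all detected gene names were called higher. IGFBPL1 and INSR were called lower, 2 of 47, where 2.92% of all detected gene names were called lower. Both shares are near those of all gene names. Below the threshold, 32 of the 46 genes measured on both arrays had a difference below 0, against 52.3% of all 22842 such gene names. A difference of -0.5 or less was seen for 18 of them, against 24.4% of all gene names, and a difference of 0.5 or more for 8, against 23.4%. The median difference was -0.39 over the 46 genes and -0.04 over all gene names. By role, 10 of 19 ligands were below 0. Below 0 were also 9 of 11 receptors, 5 of 7 IGF binding proteins and all 3 detected FGF homologous factors. The remaining 5 genes below 0 share only the letters of a family name and are described further down. The genes are not replicates of a condition, and these counts describe 2 arrays.

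**Figure D1:**
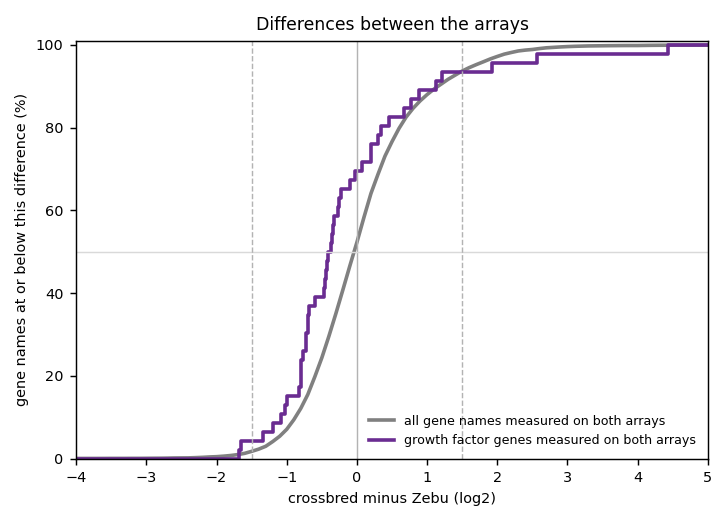
Share of gene names (%, vertical axis) whose difference, crossbred minus Zebu on the log2 scale, lies at or below the value on the horizontal axis, for the 46 growth factor genes (purple steps) and all 22842 gene names measured on both arrays (grey). Dashed lines mark 1.5 and -1.5. The purple line lies above the grey one around 0, with medians of -0.39 and -0.04, and ends at IRS1 with 4.43.

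The share of genes below 0 was larger than among all gene names at each level of brightness, least so among the dimmest genes. The counts at each level are small, and that of the dimmest genes is near the share of all gene names. Among genes whose mean level was below -4, 8 of 14 growth factor genes were below 0, against 49.5% of all gene names. Between -4 and -1 it was 8 of 12, against 51.8%. Above -1 it was 16 of 20, against 53.4%, with medians of -0.45 and -0.06.

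**Figure D2:**
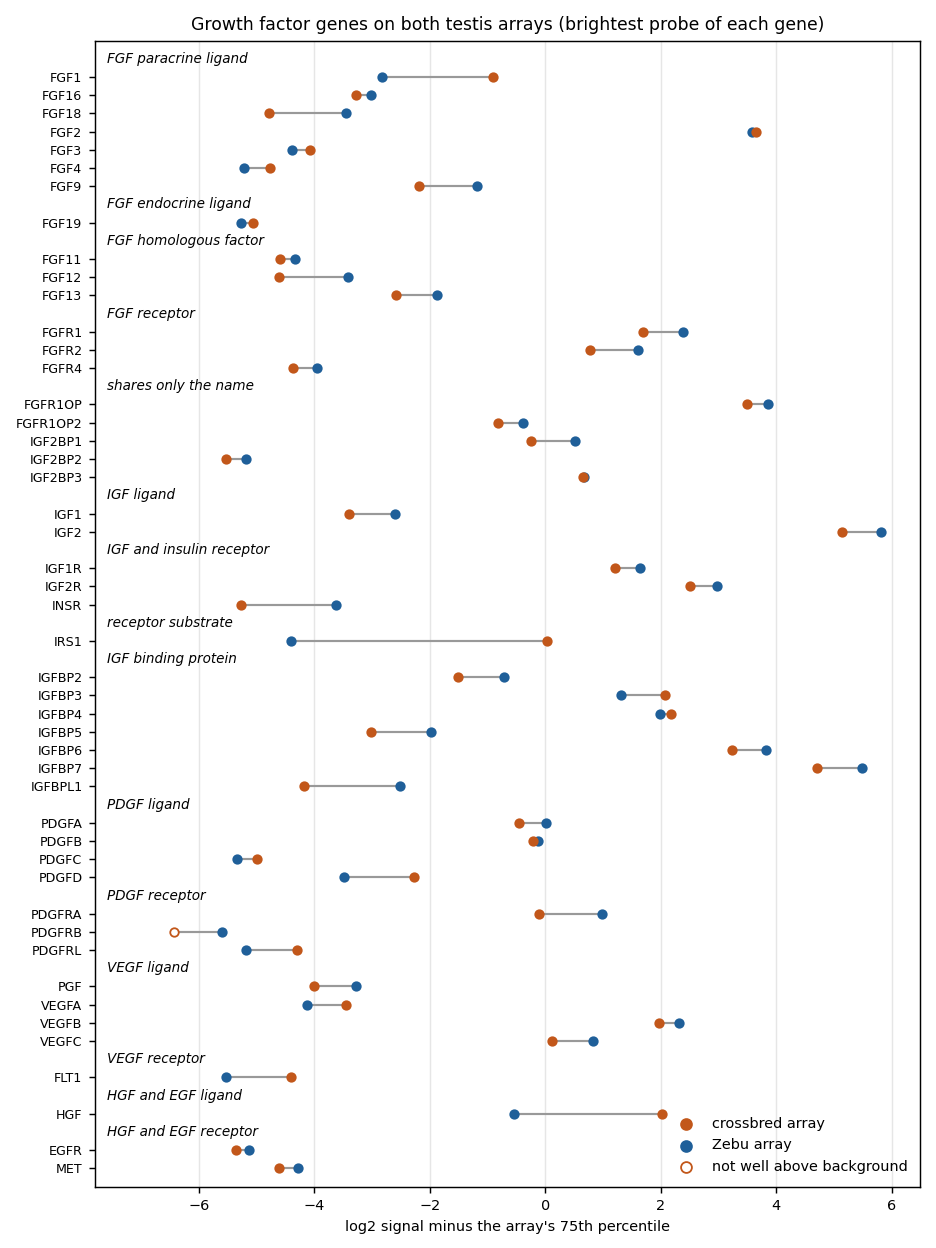
Level of each of the 47 detected growth factor genes on the crossbred array (orange) and on the Zebu array (blue), as log2 signal minus the 75th percentile of the array, grouped by role, with the open symbol for a level not well above background. Positions along the axis compare the arrays for 1 gene and not different genes. IRS1, HGF and FGF1 have the longest lines with the crossbred array on the right.

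Among the fibroblast growth factors that act on neighbouring cells, 7 of 14 were detected. FGF1, which binds all FGF receptors, was the gene called higher. Its brightest probe read -0.90 in crossbred and -2.83 in Zebu, a difference of 1.93 or 3.81-fold. That difference became 1.58 with normexp background correction. A further probe, 912 bases into the transcript, read -3.32 and -4.76, a difference of 1.44. The third, from base 3548, ran the other way. Its crossbred spot failed the background mark and its Zebu spot read -4.90, which bounds crossbred as at least 1.83-fold lower. FGF1 thus read higher in crossbred by 2 probes measured on both arrays and lower by 1 probe detected in Zebu only. In Zebu the deposited signals of the probes at bases 912 and 3548 were similar, at 45.5 and 41.2, so the probes do not settle the direction.

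FGF2, a factor used to keep spermatogonia in culture, read 3.65 and 3.58 by its brightest probe, a difference of 0.07 that is within the SD between spots. Another of its 5 probes read -4.72 in crossbred and -3.38 in Zebu, a difference of -1.34, and the remaining 3 were not well above background on either array. FGF9, which is needed for the early testis to form, has 1 probe and read -2.18 and -1.19, a difference of -0.99. FGF18 read -4.79 and -3.46 by its brightest probe, a difference of -1.34. Its other probe read -5.10 and -3.49, a difference of -1.61 that passes the threshold. Both probes of FGF18 were thus lower in crossbred, and the difference of the brightest became -0.72 with normexp background correction. FGF16, FGF3 and FGF4 differed by -0.27, 0.31 and 0.46. The 2 probes of FGF16 lie on opposite strands of the X chromosome in the annotation, and they differed by -0.27 and -0.08. FGF5, FGF6, FGF7, FGF8, FGF10, FGF20 and FGF22 were not well above background on either array, so no difference is given for FGF7, FGF8 and FGF10, which act between mesenchyme and epithelium in many organs.

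Of the endocrine members, which act through Klotho proteins, FGF19 was detected with a difference of 0.20, and FGF21 and FGF23 were not detected. The FGF homologous factors stay inside the cell and bind sodium channels. Of these 4 genes, FGF11, FGF12 and FGF13 were detected and all were below 0, with differences of -0.25, -1.19 and -0.72. FGF14 was not well above background on either array. FGF12 read -4.61 in crossbred and -3.42 in Zebu by its brightest probe, and its other 2 probes were below 0 as well. One of these was detected in Zebu only and bounds crossbred as at least 2.91-fold lower. It shares 24 bases with the neighbouring probe, which gave a difference of -0.61.

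All 3 FGF receptors that were detected read lower in crossbred, and none of the 3 passed the threshold. FGFR1 read 1.70 and 2.39, a difference of -0.69. FGFR2 read 0.77 and 1.60, a difference of -0.83. FGFR4 read -4.37 and -3.95, a difference of -0.41, and FGFR3 was not detected. FGFR2 had 4 probes measured on both arrays, whose differences had a mean of -0.77 with an SD of 0.13 between probes. A further FGFR2 probe was detected in Zebu only and bounds crossbred as at least 1.02-fold lower, which is close to no difference.

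IGF1 and IGF2, the ligands of the IGF receptor, both read lower in crossbred and neither passed the threshold. IGF1 read -3.41 in crossbred and -2.61 in Zebu, a difference of -0.80. Its 3 probes gave differences between -0.80 and -0.44, all below 0. IGF2, an imprinted fetal growth factor, read 5.14 and 5.83, a difference of -0.69. Of its 14 probes, 12 were measured on both arrays and 11 of these were below 0. The 11 measured probes of the main transcript had a mean difference of -0.77 with an SD of 0.33 between probes, and ranged from -1.23 to 0.02. The exception starts at base 477 of that transcript, where crossbred read -0.74 and Zebu -0.77. The pair of probes shown above, which share 54 bases, gave -0.69 and -0.75. Further probes that overlap each other from base 1118 gave -1.11, -0.91 and -1.23. Overlapping probes bind the same stretch of RNA and are not separate measurements of the gene.

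**Figure D3:**
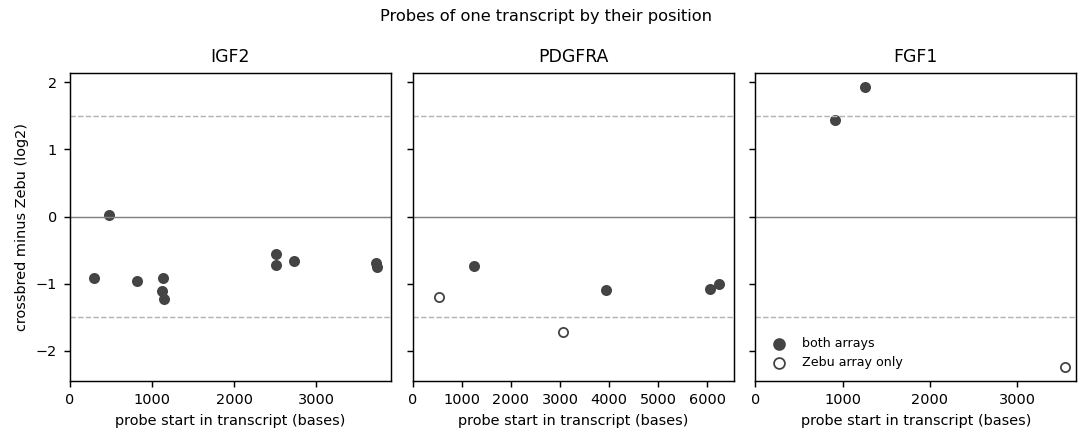
Difference of each detected probe, crossbred minus Zebu on the log2 scale, against the base of the transcript at which the probe starts, for IGF2, PDGFRA and FGF1 (open circles: detected in Zebu only). Dashed lines mark 1.5 and -1.5. IGF2 lies between -1.23 and 0.02 along its length, PDGFRA is below 0 at each probe, and FGF1 has 2 probes above 0 and 1 below.

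The receptors of the IGF family were also below 0. IGF1R, the signalling receptor of both ligands, read 1.21 in crossbred and 1.65 in Zebu, a difference of -0.43. The 18 spots nearest to that spot had a median difference of 2.58, a place outside the 2 patches, and 4 of its 6 adjacent spots were higher and 2 lower by the threshold. The other 2 probes of IGF1R gave -0.93 and 0.52, so its sign is not settled by the probes. IGF2R, which takes up IGF2 for breakdown, read 2.51 and 2.97, a difference of -0.46, and its second detected probe gave -1.17.

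INSR, the insulin receptor, was called lower. It read -5.27 in crossbred and -3.62 in Zebu, a difference of -1.65 or 3.15-fold. Both readings are dim, with deposited signals of 30.4 and 100.5 against a 75th percentile of 1176 and 1233. Among its 5 other probes, 2 were detected in Zebu only and bound crossbred as at least 2.62-fold and 1.09-fold lower. The remaining 3 were not well above background on either array. With normexp background correction the difference of INSR was -0.66, short of the threshold.

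IRS1, the adaptor that carries the signal of the insulin and IGF1 receptors, had the largest difference of the 46 genes measured on both arrays, and it rested on 1 spot. That spot read 0.03 in crossbred and -4.40 in Zebu, a difference of 4.43 or 21.6-fold. The probe at base 1612 was detected in crossbred only, at -5.25 over 2 spots. Its Zebu spots lay 1.5 apart and failed the background mark as a probe, with a mean of -4.89, so it gives neither a fold nor a bound. The probe at base 2686 was not well above background on either array. Of the 6 spots next to the bright IRS1 spot, 3 were also higher in crossbred by the threshold, which was so for 0.594% of all spots. The median over its 18 nearest spots was 0.47. The part of this place in the IRS1 reading was not tested.

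The binding proteins hold IGF in the circulation and in tissue, and 7 of 8 were detected. Of these, 5 were below 0, with a median of -0.79 over the 7. IGFBPL1, which resembles the binding proteins, was called lower, with -4.18 in crossbred and -2.51 in Zebu, a difference of -1.68 or 3.19-fold. It has 1 probe with 1 spot, and the difference was -1.0 with normexp background correction. IGFBP5 read -3.01 and -1.99, a difference of -1.03, and its dimmer probe bounds crossbred as at least 1.84-fold lower. IGFBP2 read -1.52 and -0.72, IGFBP6 3.23 and 3.83, and IGFBP7 4.70 and 5.49. Their differences of -0.80, -0.60 and -0.79 had the same sign in the second probe of each gene, with -0.41, -0.30 and -0.74.

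IGFBP3, the main carrier of IGF in blood, went the other way outside the dark patch. Its brightest probe read 2.08 in crossbred and 1.31 in Zebu, a difference of 0.77. The 4 probes measured on both arrays ranged from 0.36 to 1.17, with a mean of 0.71 and an SD of 0.35. The fifth probe lies in the dark patch, where its 18 nearest spots had a median difference of -4.14 and 5 of its 6 adjacent spots were lower by the threshold. There the Zebu array read -2.09 and the crossbred spot was not well above background, which bounds it as at least 12.9-fold lower. The part of the patch in that reading was not tested. In the annotation, 2 of the 4 other probes are placed on chromosome 4, 1 on chromosome 10 and 1 nowhere. IGFBP4 read 2.18 and 1.99 by its brightest probe, a difference of 0.19, and -0.70 and 0.35 by the other, a difference of -1.05. IGFBP1, mainly a liver product, was not detected.

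Among the platelet-derived factors, the ligands were mixed and PDGFRA was lower in crossbred. PDGFRA, the receptor of PDGFA and PDGFC, read -0.10 in crossbred and 0.98 in Zebu, a difference of -1.08. Each of its 6 probes was below 0. The 4 probes measured on both arrays had a mean of -0.98 with an SD of 0.16, and the remaining 2 bound crossbred as at least 1.75-fold and 1.81-fold lower. PDGFRB, known from pericytes, was detected in Zebu only, with a bound of at least 1.13-fold lower. PDGFRL, a protein that resembles the receptors, read -4.31 and -5.19, a difference of 0.88 by 1 probe.

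PDGFD, a ligand of PDGFRB, read -2.27 in crossbred and -3.48 in Zebu, a difference of 1.21 that became 0.77 with normexp background correction. Its dimmer probe was detected in Zebu only and bounds crossbred as at least 1.47-fold lower. PDGFA read -0.46 and 0.01, a difference of -0.47. PDGFB read -0.22 and -0.13, a difference of -0.09, and its second probe bounds crossbred as at least 2.17-fold lower. PDGFC read -5.00 and -5.34, a difference of 0.35. Both genes with a second detected probe, PDGFB and PDGFD, had it lower in crossbred.

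In the VEGF family, VEGFA and its receptor FLT1 were above 0 and the other ligands below. VEGFA, the main factor of blood vessel growth, read -3.45 in crossbred and -4.12 in Zebu, a difference of 0.67. Its second probe, which shares 31 bases with the first, gave 0.44. FLT1 read -4.41 and -5.54, a difference of 1.13 that became 0.45 with normexp background correction. VEGFB read 1.98 and 2.31, a difference of -0.34, and its 4 probes had a mean of -0.39 with an SD of 0.08. VEGFC, a factor of lymphatic vessels, read 0.12 and 0.82, a difference of -0.70, and its second probe gave -0.84. PGF read -4.0 and -3.29, a difference of -0.72. KDR, the main signalling receptor for VEGFA, is no member by name, and it read -2.36 and -1.98, a difference of -0.38.

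HGF, which is made by mesenchymal cells and acts on epithelium through MET, was called higher by 2 probes. Its brightest probe read 2.02 in crossbred and -0.55 in Zebu, a difference of 2.57 or 5.92-fold. The probe at base 734 read -3.70 and -5.39, a difference of 1.69. The third, at base 368, failed the mark in both groups. The 18 spots nearest to the brightest HGF probe had a median difference of -0.07, and those nearest to the next one 0.10. MET read -4.62 and -4.28, a difference of -0.33, and EGFR read -5.35 and -5.13, a difference of -0.23. EGF was not well above background on either array. HGF is the only one of the 5 called genes with a second probe past the threshold in the same direction.

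The letters of a family also stand in 5 names that encode something else, namely FGFR1OP (now CEP43) and FGFR1OP2, first found as fusion partners of FGFR1, and IGF2BP1, IGF2BP2 and IGF2BP3, which bind RNA. Their brightest probes differed by -0.77 to -0.03. In FGFR1OP the other probes gave 0.59 and 0.37, against -0.37 by the brightest, and in FGFR1OP2 they gave 0.82, 0.76 and -0.08, against -0.43. Without these 5 genes, 27 of the other 41 genes measured on both arrays were below 0, and the median over the 41 was -0.41.

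Read by probe, 114 of the 154 probes were detected. Of these 4 were higher, from 3 genes, against 6.14% of all detected probes, and 9 were lower, from 9 genes, against 2.99%. Of the 9 lower probes, the 3 of FGF18, IGFBPL1 and INSR were measured on both arrays. The other 6 were detected in Zebu only, and their bound passed the threshold in 2, those of FGF12 and of IGFBP3 in the dark patch, and fell short of it in 4, those of FGF1, IGFBP5, PDGFB and PDGFRA. Detection in Zebu only was found for 16 probes or 14%, against 5.71% of all detected probes. Detection in crossbred only was found for 1 probe, against 2.73%. Of 26 genes with 2 or more probes on both arrays, 15 had all of them below 0, 5 had all above 0 and 6 were mixed. A further probe had the sign of the brightest one in 43 of 51 cases, or 84.3%, against 74.3% over 13587 such probes of all genes. The median gap between them was 0.33, against 0.27. In 8 genes 19 probes overlapped another probe of the gene, and the 8 overlapping pairs measured on both arrays had a median gap of 0.16 and a largest gap of 0.34.

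**Figure D4:**
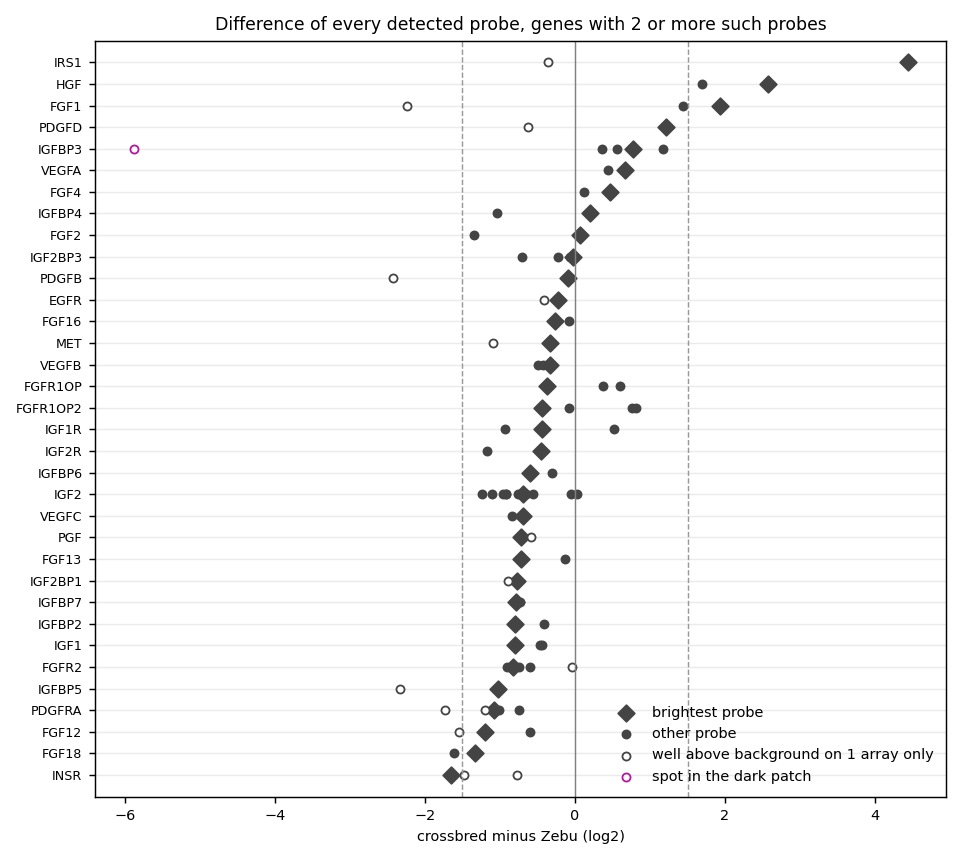
Difference of every detected probe, crossbred minus Zebu on the log2 scale, for genes with 2 or more detected probes, ordered by the brightest probe (diamonds). Circles are further probes, open symbols were well above background on 1 array only and purple marks the IGFBP3 spot in the dark patch. Dashed lines mark 1.5 and -1.5. HGF has 2 probes beyond 1.5, while FGF1 and IRS1 have a further open symbol left of 0, which was dim on 1 array.

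Other genes of these pathways were taken from a list of receptors, adaptors, kinases and regulators, of which 51 were on the array and 47 detected. Well above background on both arrays were 44, and 28 of them were below 0, with a median of -0.24. BRAF, a kinase between RAS and MAP kinase, read -3.35 in crossbred and -5.12 in Zebu, a difference of 1.77 by 1 probe. GRB14, an adaptor that holds back the insulin receptor, read 0.64 and 2.39, a difference of -1.75. GHR, the growth hormone receptor, was detected in Zebu only, with crossbred at least 4.46-fold lower, and BTC, a ligand of EGFR, in crossbred only, at least 2.98-fold higher. With BRAF, GRB14, GHR and BTC, 2 of 47 were called higher and 2 lower, against 7.12% and 2.92% of all gene names. GRB14 was read from 1 of 2 probes, and GHR and BTC from 1 of 3 each. What their further probes read is not given here.

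Marker genes of the cells of the testis also differed between the arrays. All 7 spermatid markers were above 0, with a median of 1.64, and PRM2, TNP2, ODF1 and ACRV1 passed the threshold. The summed level of the 7, relative to the 75th percentile on the linear scale, was 517 in crossbred and 274 in Zebu. All 5 spermatocyte markers on the array were above 0 too, with a median of 0.41. All 6 Sertoli cell markers on the array were below 0, with a median of -0.99 and summed levels of 54.8 and 103.3. All 6 Leydig cell markers were below 0, with a median of -0.79 and summed levels of 87.8 and 132.5, and so were all 5 markers of peritubular and smooth muscle cells, with a median of -0.77 and summed levels of 29.3 and 51.6. Beside these, the growth factor medians were -0.09 over 19 ligands, -0.43 over 11 receptors and -0.79 over 7 IGF binding proteins. A summed level is set mostly by the brightest probes, as by INSL3 among the Leydig cell markers with levels of 6.25 and 6.69. Spermatogonia markers were mixed, with 4 of 6 below 0. Endothelial markers had a median of 0.13 over the 5 measured on both arrays, and the 4 such macrophage markers had a median of 0.38, with AIF1 at 1.95. TIE1 and CD163 of these lists were detected in Zebu only. In pooled tissue RNA, fewer cells of a type and less RNA per cell cannot be told apart. The part of cell makeup in the growth factor differences was not tested.

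**Figure D5:**
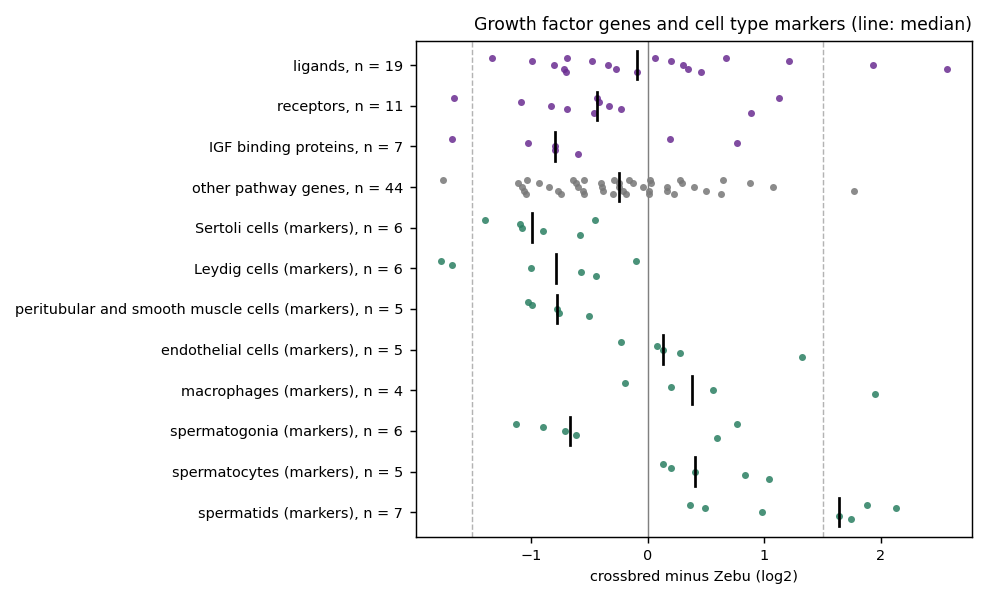
Difference of each gene measured on both arrays, crossbred minus Zebu on the log2 scale, for growth factor ligands, receptors and IGF binding proteins (purple), other pathway genes (grey) and marker genes of testis cell types (green), with the median as a black line. Dashed lines mark 1.5 and -1.5. Sertoli, Leydig and peritubular markers are below 0 and spermatid markers above 0, while ligands lie on both sides with a median of -0.09.

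Some tissue other than testis was looked for by its markers. HBA, a globin of red blood cells, read -0.93 in crossbred and 1.22 in Zebu, a difference of -2.15, while HBB and ALAS2 were not well above background on either array. Of the epididymis markers, CRISP1 failed that mark in both groups too. DEFB1 was well above background on both arrays, with 3.60 in crossbred and 3.64 in Zebu, a difference of -0.03. GPX5 was well above background in crossbred only, at least 11.1-fold higher. Its spot lies in the dark patch, where its 18 nearest spots had a median difference of -0.54, the opposite sign.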

How the data were processed

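Testis RNA pooled from 3 bulls per group was measured on 1 single-colour array per group, on the same slide. The authors deposited the processed signal of Agilent Feature Extraction 11.5.1.1 for each spot, an intensity with the background subtracted and no normalization between arrays, and log2 values shifted to the 75th percentile. These were made in GeneSpring GX. Before that, RNA isolated on columns had been primed with oligo dT and amplified into Cy3-labelled cRNA, so a reading can depend on how far a probe lies from the end of the transcript. The probe annotation is on Btau_3.1.

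Control spots and 13 outlier spots were left out, and 0 spots were saturated. Spots of the same probe were averaged as log2 intensity, less the 75th percentile over 51279 probes. The brightest probe over both arrays stood for its gene. For a bound, the dim array took the higher of its own reading and the lowest level well above background, -5.78 in crossbred and -5.94 in Zebu. Probes were set as overlapping from 15 shared bases. All members are accounted for. Those past the threshold by any probe, those in a patch and the main ligands and receptors are named with values, and so are pathway genes past the threshold and KDR. The members and lists were chosen with earlier results of these data known. Of the 60 names, 59 are symbols in the RefSeq gene table of ARS-UCD2.0 and 1 is a synonym. The steps were tested on simulated arrays with known differences larger than the threshold, set at genes with a spot well above background on both arrays. The simulation had the same noise at every level and no patches, so it does not cover bounds, dim readings or patches. Python 3.11.15 with pandas 2.3.3 and limma 3.58.1 were used. The alternatives changed the background correction, the shift, the choice of probes, the filter on dim probes, the threshold and the spots left out.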

Additional observations from a re-analysis of the deposited data

How the results depend on the processing

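With 1 array per group no replicate could be left out and no test could be made. No paired analysis was possible because each group has 1 array. The count of 3 genes higher in crossbred was the same under each alternative of background, shift and spots, and so was the count of 2 lower, except that normexp background correction left 0 lower. Counting every probe gave 9 lower probes, and 70 of 97 probes on both arrays below 0 in place of 32 of 46 genes. A threshold of 1 gave 5 higher and 6 lower, a threshold of 2 left 0 lower, and a threshold of 0.5, added after seeing the data, gave 8 higher and 19 lower. The median difference stayed between -0.44 and -0.36 over the alternatives, and its gap to the median of all gene names between -0.43 and -0.35. Over 24 named genes, 180 of 192 values moved by less than the SD between spots, 12 by more and 0 called values changed sign. Most of the larger moves were at dim probes under normexp, which took IRS1 from 4.43 to 3.34 and FGF12 from -1.19 to -0.48. The mean over the probes on both arrays took FGF2 from 0.07 to -0.64, and leaving out spots with disturbed neighbours, also added later, took IGF1R from -0.43 to -0.94. Normexp was run with an offset of 50 on every signal, which shrinks differences between dim readings the most. For FGF2, -0.64 is the mean of its probes at 0.07 and -1.34. IGF1R was then read from another probe, at -0.93 in the main processing. The part of the offset in the moves under normexp was not tested.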
